A study of Rattus norvegicus with 24 samples.

Results

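Gene expression in the nasal lining of male Fischer rats was compared between 28 and 7 days of inhaled formaldehyde, by asking whether the difference between exposed and control noses was itself different at the later time. The comparison uses 12 of the 24 arrays of the study, all those of nasal tissue, chosen by their labels and in 4 groups of 3. Exposed rats breathed 2 ppm formaldehyde through the nose only, 6 hours per day, for 28 or 7 days, and control rats sat in the same kind of tubes with room air for as long. All rats were about 8 weeks old at the start, so the 28-day groups were older at collection, and the gas was made from paraformaldehyde labelled with 13C and deuterium. Tissue came from the maxilloturbinate, a scroll of bone covered by mucosa inside the nose. The labels do not say that the 3 arrays of a group came from 3 separate rats, and rats could share a cage, so p-values measure only the spread between these arrays.

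Formaldehyde is a reactive, water-soluble gas that is taken up mostly in the nose, where it binds proteins and DNA and irritates the lining. That lining holds a respiratory part, with ciliated, mucous and basal cells, and an olfactory part, where sensory neurons are renewed through life from basal progenitors and sit among sustentacular cells. Each mature olfactory neuron uses a single odorant receptor gene out of a very large family, divided into class I receptors, which resemble those of fish, and class II receptors, which make up most of the family in mammals. Odorant binding activates a cascade of a G protein, adenylyl cyclase and a cyclic nucleotide-gated channel.

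Values are log2 intensities, on which a difference of 1 is a 2-fold ratio. The 28-day effect is the mean of exposed minus the mean of control arrays at 28 days, the 7-day effect is the same at 7 days, and the difference between days is the 28-day effect minus the 7-day effect. A gene was called where limma's adjusted p for that difference was under 0.05 over 21910 probe sets, those whose mean over the 12 arrays was at or above percentile 25. The study calls the samples nasal epithelial cells. Markers of olfactory neurons (Omp, Gnal, Cnga2 and Adcy3) and of epithelium (Epcam, Cdh1, Krt8, Krt18 and Krt19) were all at or above percentile 89.4 of the probe sets, and markers of vessels, fibroblasts, bone, muscle and leukocytes were detected too, so the tissue was mixed. In such bulk tissue fewer cells of a type and less RNA per cell cannot be told apart.

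The difference between days passed the threshold for 22 of 21910 probe sets, which is 0.1% of those tested, and it was negative in all 22. Odorant receptors accounted for 21 of them and the kinetochore gene Ndc80 for the other. Every called probe set was higher in exposed than in control noses at 7 days, by 1.39 to 4.90, while its 28-day effect lay between -0.49 and 0.56. Exposed arrays lay clear of controls in all 22 at 7 days, and the arrays of both treatments overlapped in all 22 at 28 days. The 22 were chosen by the difference that these same values make up, so both counts describe the calls and test nothing. Their shares over all probe sets were not counted. No probe set was called in the positive direction, although 1646 (7.51%) were positive and 1331 (6.07%) negative at an unadjusted p under 0.05.

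The called genes are shown by their start regions, since 6 of the 10 called genes with an entry in the RefSeq table of build GRCr8 lay on chromosome 3, against 27.9% of 901 class II receptor entries and 7.91% of 27456 entries in all. All of the 6 but Or8h11 are of family 4, whose share on chromosome 3 was not counted, and some are close neighbours. The share is therefore a description only. Each window runs from 250 bases before to 50 bases after the annotated start. The 3 receptors printed here hold the letters TAATNA or the reverse complement TNATTA, the core bound by homeodomain factors, which act in the choice of receptor genes in mouse, and those letters are in capitals. For Ndc80 the capitals mark TTTGAA, read on the opposite strand as TTCAAA, a cell cycle element of mitotic genes. The 2 motifs were searched separately on both strands. The windows are Or4k50 at chr3:118709166-118709465 on the plus strand, Or4k52 at chr3:118795528-118795827 on the plus strand, Or4a66 at chr3:94932094-94932393 on the minus strand and Ndc80 at chr9:118887480-118887779 on the minus strand.
Or4k50: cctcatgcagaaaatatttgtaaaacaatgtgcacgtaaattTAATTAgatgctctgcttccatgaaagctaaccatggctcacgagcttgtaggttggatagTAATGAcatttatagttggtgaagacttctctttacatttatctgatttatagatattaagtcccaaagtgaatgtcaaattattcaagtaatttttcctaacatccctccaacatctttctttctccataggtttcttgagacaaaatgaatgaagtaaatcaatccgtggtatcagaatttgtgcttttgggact
Or4k52: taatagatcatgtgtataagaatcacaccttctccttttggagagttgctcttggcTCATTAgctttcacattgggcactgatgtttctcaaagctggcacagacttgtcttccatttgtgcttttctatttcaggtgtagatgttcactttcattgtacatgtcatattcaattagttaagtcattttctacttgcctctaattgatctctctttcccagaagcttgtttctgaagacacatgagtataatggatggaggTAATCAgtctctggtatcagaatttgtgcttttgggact
Or4a66: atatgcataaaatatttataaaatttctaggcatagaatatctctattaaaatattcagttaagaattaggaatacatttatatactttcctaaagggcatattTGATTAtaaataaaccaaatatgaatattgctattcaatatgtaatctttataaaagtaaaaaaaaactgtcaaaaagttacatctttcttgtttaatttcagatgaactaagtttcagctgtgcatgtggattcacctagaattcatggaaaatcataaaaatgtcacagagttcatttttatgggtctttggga
Ndc80: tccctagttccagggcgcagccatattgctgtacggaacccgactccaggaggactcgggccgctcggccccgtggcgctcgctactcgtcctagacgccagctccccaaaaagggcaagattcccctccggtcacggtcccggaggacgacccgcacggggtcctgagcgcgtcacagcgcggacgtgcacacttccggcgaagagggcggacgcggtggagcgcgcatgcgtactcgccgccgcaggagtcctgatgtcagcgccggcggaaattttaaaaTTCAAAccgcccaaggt

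Of the 9 called receptors with a window, 4 held TAATNA on either strand, against 64.4% of all class II windows, 65.6% of 125 class I windows and 27.4% of windows of all genes. The Ndc80 match to TTTGAA began at position 34 after the start, and 18.1% of all windows and 39.6% of class II windows held those letters. A match is a description of letters and no site. In 97.6% of class II windows the annotated start is the ATG itself. These windows hold the 250 bases before the coding sequence and the first 50 bases from the ATG on, and need not be promoters. The second marked stretch of Or4k52 began at position 12 after the start, past the ATG. The median content of A and T was 65% in class II windows, against 47.7% over all genes.

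The 28-day nasal arrays had medians of 7.35 to 7.42 and standard deviations of 1.70 to 1.80, and the 7-day nasal arrays had medians of 8.255 to 8.28 and standard deviations of 1.97 to 2.01. An added shift cancels in the difference between days, and a compression does not. Day and array scale cannot be told apart. The 28-day controls were also less alike than the other groups. Their pairwise correlations went down to 0.906, against at least 0.976 within each other nasal group. Among them, control array 1 was low in olfactory neuron genes and high in squamous genes, and control array 3 had the narrowest spread of all 12.

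Among the receptors with 1 gene symbol, Or4e5 had the largest difference between days. It had 5.42, 5.49 and 6.66 in exposed noses and 5.64, 5.92 and 7.46 in control noses at 28 days. At 7 days it had 9.07, 10.37 and 10.89 in exposed noses and 4.69, 5.40 and 5.54 in control noses. The 7-day exposed arrays stood above all others, and the 28-day groups overlapped. The difference between days was -5.39 ± 0.79 (SE, adjusted p = 0.0466).

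Or4a15 belongs to the same receptor family. Its values were 5.93, 7.25 and 6.82 in exposed and 6.87, 6.38 and 6.64 in control noses at 28 days, and 9.51, 8.38 and 8.11 in exposed and 4.88, 4.09 and 4.48 in control noses at 7 days. Both 28-day groups lay between the 7-day groups, and the 28-day groups overlapped. The difference between days was -4.15 ± 0.55 (SE, adjusted p = 0.0357). Or4k52 stood at 6.45, 6.89 and 6.43 in exposed and 6.12, 6.44 and 6.65 in control noses at 28 days, against 9.26, 8.02 and 8.42 in exposed and 5.04, 5.03 and 5.38 in control noses at 7 days. Its difference between days was -3.23 ± 0.39 (SE, adjusted p = 0.0252). Or4k15c had 28-day values of 5.12, 5.67 and 6.21 in exposed and 5.31, 5.55 and 6.50 in control noses, and 7-day values of 9.17, 9.75 and 9.91 in exposed and 6.11, 6.38 and 6.38 in control noses. Here both 28-day means were under both 7-day means, on arrays whose medians were also lower. The difference between days was -3.44 ± 0.47 (SE, adjusted p = 0.0373).

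The other called receptors with 1 symbol repeated this shape at smaller sizes. Their differences between days were -3.13 for Or4k50, -3.08 for Or4a66, -2.60 for both Or4c115 and Or4c111, -2.22 for Or13a18b, -1.89 for Or2t47d and -1.48 for Or8h11, with adjusted p from 0.0357 to 0.0478. A further 10 called probe sets carried 2 to 7 receptor symbols each and are not named. Receptor genes of a family are close in sequence, and a probe set can also read a neighbour, so the single gene is less certain than the family. In 17 of the 22 both 28-day means lay between the 7-day means, and in 22 of 22 after each array was centred on its median. The 28-day control mean was above the 7-day control mean in the same number, 17 as deposited and 22 after centring. The same values chose the 22, so these counts are a description, and their shares over all probe sets were not counted. In 15 of the 22 the mean of the 7-day controls was under the level of the filter, 6.61, so these probe sets passed it through their other groups. The means of Or4e5, Or4k15c and Or4k52 were under it in both 28-day groups as well. Those genes passed only through the 7-day exposed arrays, whose height also makes their difference between days.

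The count of calls moved with the scaling, the filter and the arrays kept. After quantile normalization of the 12 arrays 1 probe set was called, and centring each array on its median gave 65. With each nasal array left out in turn, 1 probe set, which carries 3 receptor symbols, was called in all 12 fits. Its values were 6.68, 7.22 and 7.58 in exposed and 7.03, 6.88 and 7.27 in control noses at 28 days, and 9.31, 9.01 and 9.33 in exposed and 6.03, 5.74 and 5.67 in control noses at 7 days, with a difference of -3.30 ± 0.29 (SE, adjusted p = 0.0046). Ndc80 was called in 6 of the 12 fits and the other called probe sets in 2 to 6. There was 1 call without 28-day control array 2, 7-day exposed array 3 or 7-day control array 2, and there were 2 without any single 28-day exposed array, all among the 22. Without 7-day control array 3 there were 2 calls, of which 1 was among the 22 and the other was positive. Without 7-day control array 1 there were 12 calls, without 7-day exposed array 1 there were 17 and without 7-day exposed array 2 there were 97. Without 28-day control array 1 all 22 were called among 2640.

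**Figure D1:**
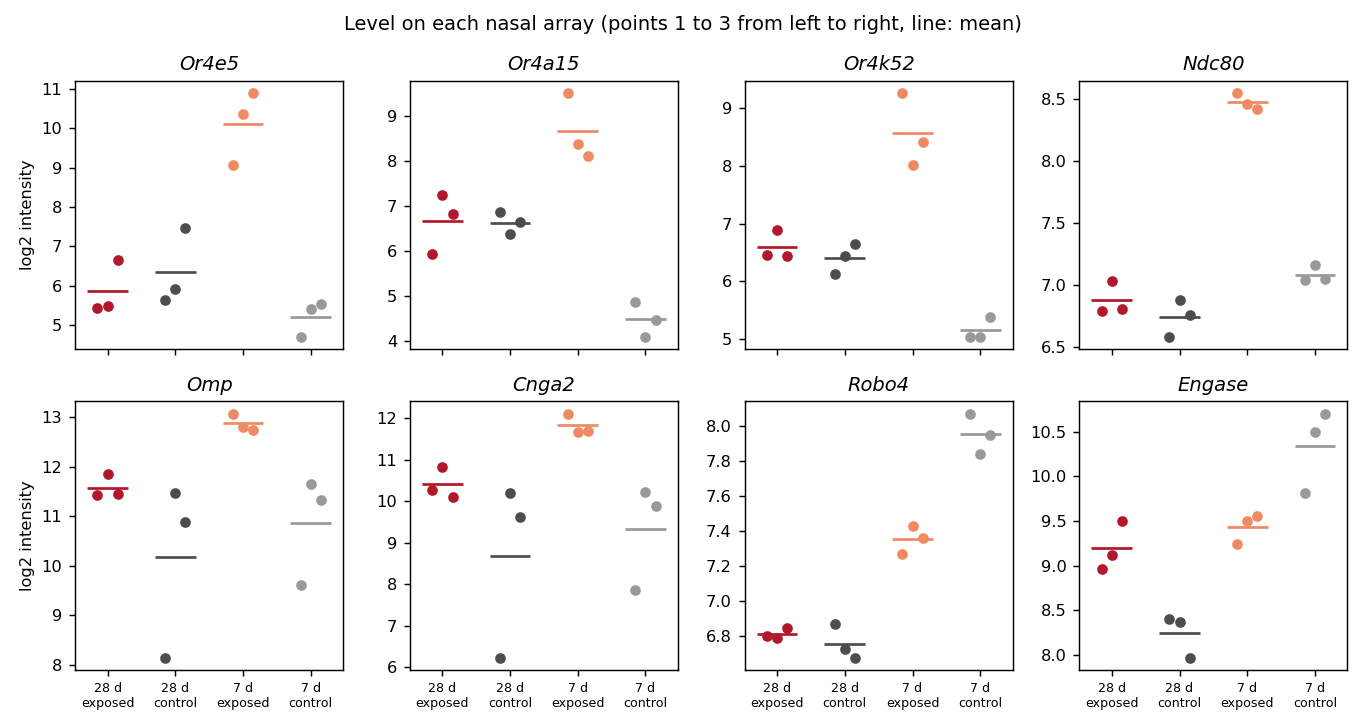
Log2 intensity of 8 genes on each nasal array (y axis), with 28-day exposed, 28-day control, 7-day exposed and 7-day control arrays from left to right and a line at each group mean. The receptors Or4e5, Or4a15 and Or4k52 and the kinetochore gene Ndc80 stand highest in the 7-day exposed arrays, with both 28-day groups of Or4a15 and Or4k52 above the 7-day controls, Omp and Cnga2 have a low array in each control group, and Robo4 and Engase stand highest in the 7-day controls.

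Across all probe sets tested, the exposure comparison was called for 1 of 21910 at 28 days, 0.00456%, and for 3564, 16.3%, at 7 days, of which 1847 (8.43%) were higher and 1717 (7.84%) lower. The 7-day count was 859 without 7-day exposed array 1, 808 and 1565 without 7-day control arrays 1 and 3, and 5554 without 28-day control array 3, which enters that fit through the shared spread. The 28-day call was a probe set with no gene name, at 6.53, 6.67 and 6.72 in exposed and 7.91, 8.27 and 7.84 in control noses. It was not called between days (adjusted p = 0.0807). The 28-day count was 1081, 130 and 3 without control arrays 1, 2 and 3 of that day, 0 without any single 28-day exposed array and 28 without 7-day exposed array 1. The spread of effects over probe sets was 0.26 (SD) at 28 days and 0.46 at 7 days. Both effects correlated across probe sets with Pearson's r of 0.462, a description only, since genes are not independent replicates. That r was 0.098 without 28-day control array 1 and 0.637 without 28-day control array 3.

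**Figure D2:**
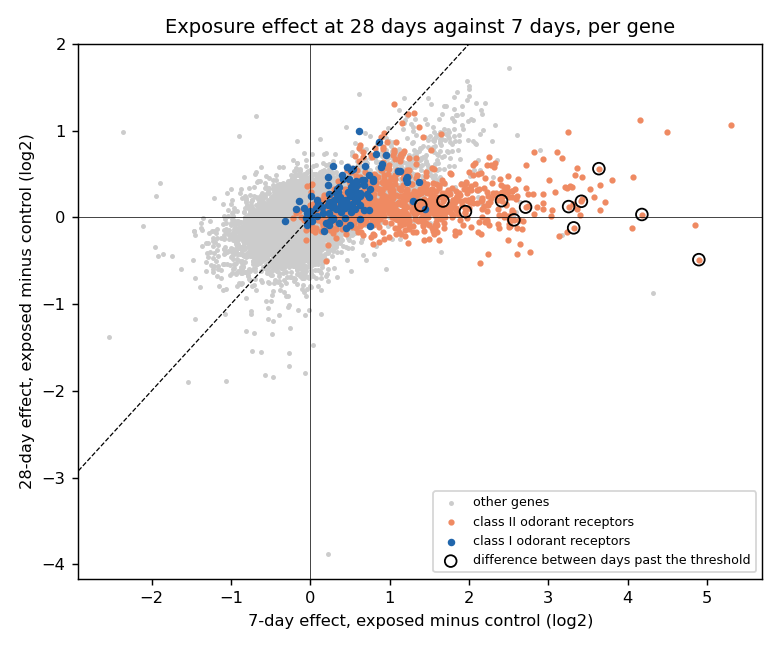
The 28-day effect (y axis) against the 7-day effect (x axis) in log2 for each gene with 1 symbol, with no filter on level and a dashed line where both are equal. Class II receptors spread to the right up to 5.3 while staying near 0 at 28 days, and the circled genes are the 12 past the threshold, whose 28-day effects lay between -0.49 and 0.56.

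Most receptor genes are dim, and 453 of 931 class II and 66 of 121 class I genes passed the filter, so the whole family is described without it. A fit with no filter called 145 of 29214 probe sets, 0.496%, with 9 (0.0308%) positive and 136 (0.466%) negative. Of the 931 class II receptors 87 were called, all negative, which is 9.34%, against 0.0226% called negative and as many called positive among 13250 genes that are no chemosensory receptors. In fits chosen after seeing the data, 325 class II genes were called, all negative, without 28-day control array 1, and 0 without 28-day control array 3. Of all 29214 probe sets, the first fit called 2085 (7.14%) in either direction, 924 positive and 1161 negative. The second called 5 (0.0171%), all negative. The median difference between days was -0.84 for class II genes (-0.98 and -0.72 without those arrays), with a median 28-day effect of 0.14 and a median 7-day effect of 1.06. Class I receptors had 0 of 121 called. At an unadjusted p under 0.05 there were 4 of 121 class I genes, 1 positive and 3 negative, against 12.5% of all probe sets. Class I had a median difference of -0.22, which was -0.11 without 28-day control array 3, and median effects of 0.20 at 28 days and 0.43 at 7 days. Among the brighter class I genes, above the median level of the arrays, the median was 0.20 instead. Whether the classes differ was not tested. All class II genes together averaged 6.15, 6.52 and 6.35 in exposed and 5.90, 6.16 and 6.43 in control noses at 28 days, and 7.65, 7.18 and 7.19 in exposed and 5.96, 6.23 and 6.17 in control noses at 7 days. The 7-day groups did not overlap and the 28-day groups did.

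Set against the mean of all genes on the same array, class II receptors averaged -1.48 in exposed and -1.64 in control noses at 28 days, and -1.39 in exposed and -2.56 in control noses at 7 days. By this measure the 7-day controls were the group that stood apart. Vomeronasal receptors, which belong to another organ and are the dimmest list here, averaged -2.90 in exposed and -2.79 in control noses at 28 days, and -3.91 in exposed and -3.82 in control noses at 7 days. That list therefore also stood higher at 28 days, by about the same in both treatments, on the arrays of narrower spread. The part of array scale in the control levels of dim receptors cannot be told apart from day.

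By family, medians ran from -1.59 to values near 0, and differences between families were not tested. With no filter 0.466% of all probe sets were called negative, the share to set beside each family count given below. Each class II family's count became 0 without 28-day control array 3, where 0.0171% of all probe sets were called. Without 28-day control array 1 the count of family 4 was 73 of 133. That fit called 1161 of 29214 probe sets negative, so calls rose over all probe sets too. In family 4, which carries 8 of the 11 called receptors with 1 symbol, 33 of 133 genes were called with no filter and the median was -1.49. Family 14 had 7 of 21 called with a median of -1.59, and family 12 had 4 of 22 with a median of -1.37. Families 9 and 13 had 4 of 29 and 5 of 40 called, with medians of -1.05 and -1.08. The largest family, number 5, had 10 of 150 called and a median of -0.67, and family 10 had 2 of 71 and a median of -0.43. In every class II family of 5 or more genes the 7-day median lay between 0.71 and 1.76 and the 28-day median between 0.05 and 0.23. Receptors that still carry an older Olr symbol gave 5 of 53 called, all negative.

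**Figure D3:**
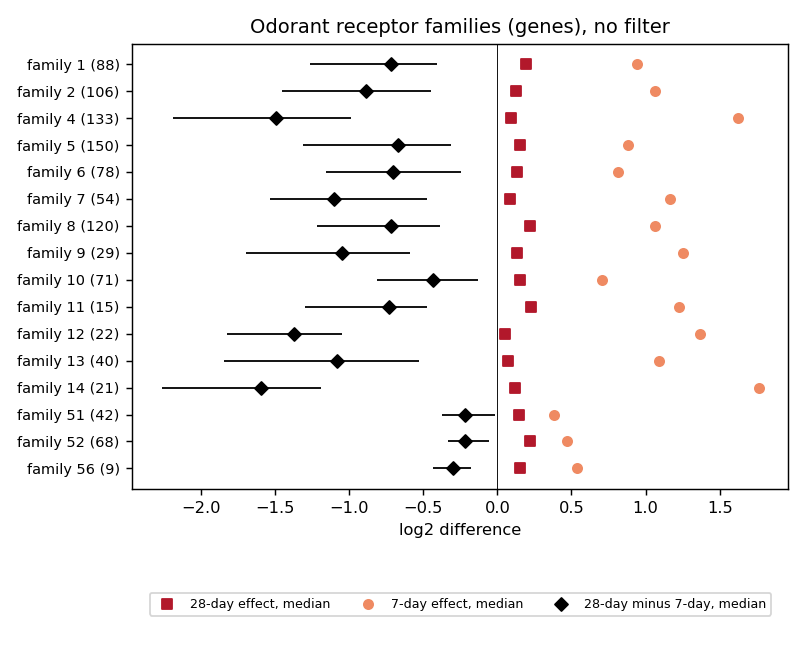
Median log2 difference (x axis) for each odorant receptor family of at least 5 genes (y axis, number of genes in brackets), with the 28-day effect as squares, the 7-day effect as circles and the difference between days as diamonds, whose lines span the quartiles over genes. Families 14 and 4 have the lowest medians, -1.59 and -1.49, and the class I families 51, 52 and 56 lie nearest to 0.

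In class I, Or52x1 had a difference of -1.34 ± 0.33 (SE, adjusted p = 0.153), and Or51e1, a receptor also made in other tissues, had 0.27 (adjusted p = 0.378). Trace amine-associated receptors, a separate small family of olfactory receptors for amines, gave 0 of 11 called and a median of -0.46. It was -0.96 without 28-day control array 1, when 4 were called negative (5.81% of all probe sets were). Without 28-day control array 3 it was -0.09, with 0 called. Taar6 had 7.13, 7.61 and 7.18 in exposed and 6.59, 7.38 and 7.19 in control noses at 28 days, against 8.83, 8.32 and 8.16 in exposed and 6.65, 7.18 and 7.20 in control noses at 7 days, a difference of -1.17 ± 0.34 (SE, adjusted p = 0.246). Taar7b had -1.14 (adjusted p = 0.33).

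The shared machinery of olfactory neurons gave no call. Of 26 genes of odorant transduction and mature neurons 25 were negative, with a median difference between days of -0.65. Over all 12211 genes tested with 1 symbol the median was 0.05, with 7112 positive and 5099 negative. At 7 days 16 of the 26 rose, where 8.43% of all probe sets did. At 28 days none of the 26 passed the test, with a median effect of 0.99. The list averaged 9.69, 9.95 and 9.58 in exposed and 7.55, 9.61 and 9.31 in control noses at 28 days, and 11.48, 11.08 and 11.09 in exposed and 8.95, 10.09 and 9.89 in control noses at 7 days. Control array 1 was the low one at both days, and the exposed arrays were close together. A low control array raises the exposure effect of its day. Leaving out the low 28-day control thus makes the mean difference of the list more negative. Leaving out the low 7-day control makes it less negative. Without 28-day control array 1 the median 28-day effect was 0.30 and the median difference was -1.31. In that fit 7 of 26 were called negative, where 5.81% of all probe sets were. The median difference was -0.39, with 0 called, without 28-day control array 3.

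Omp, the olfactory marker protein of mature neurons, had 11.42, 11.85 and 11.44 in exposed and 8.15, 11.47 and 10.89 in control noses at 28 days, and 13.07, 12.80 and 12.75 in exposed and 9.62, 11.66 and 11.33 in control noses at 7 days. Its difference was -0.61 ± 1.05 (SE, adjusted p = 0.793), and control array 1 of each day stood far below the other controls. The difference was -1.61 without 28-day control array 1, 0.04 without 28-day control array 2 and 0.02 without 7-day control array 1. Ncam2, an adhesion protein of olfactory axons, had 7.67, 7.75 and 7.71 in exposed and 6.56, 7.76 and 7.41 in control noses at 28 days, and 10.17, 9.18 and 9.48 in exposed and 7.31, 7.16 and 7.44 in control noses at 7 days. Its difference was -1.84 ± 0.41 (SE, adjusted p = 0.121), and without 28-day control array 1 it passed at -2.18 (adjusted p = 0.00871). The neuron list thus stood high in the same 7-day exposed arrays as the called receptors, and its part in their calls was not tested. Rtp2, which carries receptors to the cell surface, had -0.57, and Slc17a6, the vesicular glutamate transporter of these neurons, had -1.59, neither called.

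Progenitors and immature olfactory neurons gave 0 of 20 called and 18 negative, with a median of -0.51. It was -1.0 without 28-day control array 1, when 3 were called negative (5.81% of all probe sets were). Without 28-day control array 3 it was -0.31, with 0 called. Neurod1, which drives neuronal differentiation, had -0.88 (adjusted p = 0.448), and Gap43, a growth cone protein of immature neurons, had -0.38 (adjusted p = 0.513). Sustentacular cells and Bowman's glands showed no common direction, with 10 positive and 11 negative of 21 and a median near 0. Cyp2g1, an olfactory cytochrome P450, had 0.19 ± 0.99 (SE) with all arrays and -0.90 without 28-day control array 1, where that array stood at 9.62 and the other 28-day controls at 12.82 and 12.90. Fmo2, a flavin monooxygenase, had 0.55 (adjusted p = 0.372), and Ermn, an actin-binding protein, had -0.56 (adjusted p = 0.509).

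**Figure D4:**
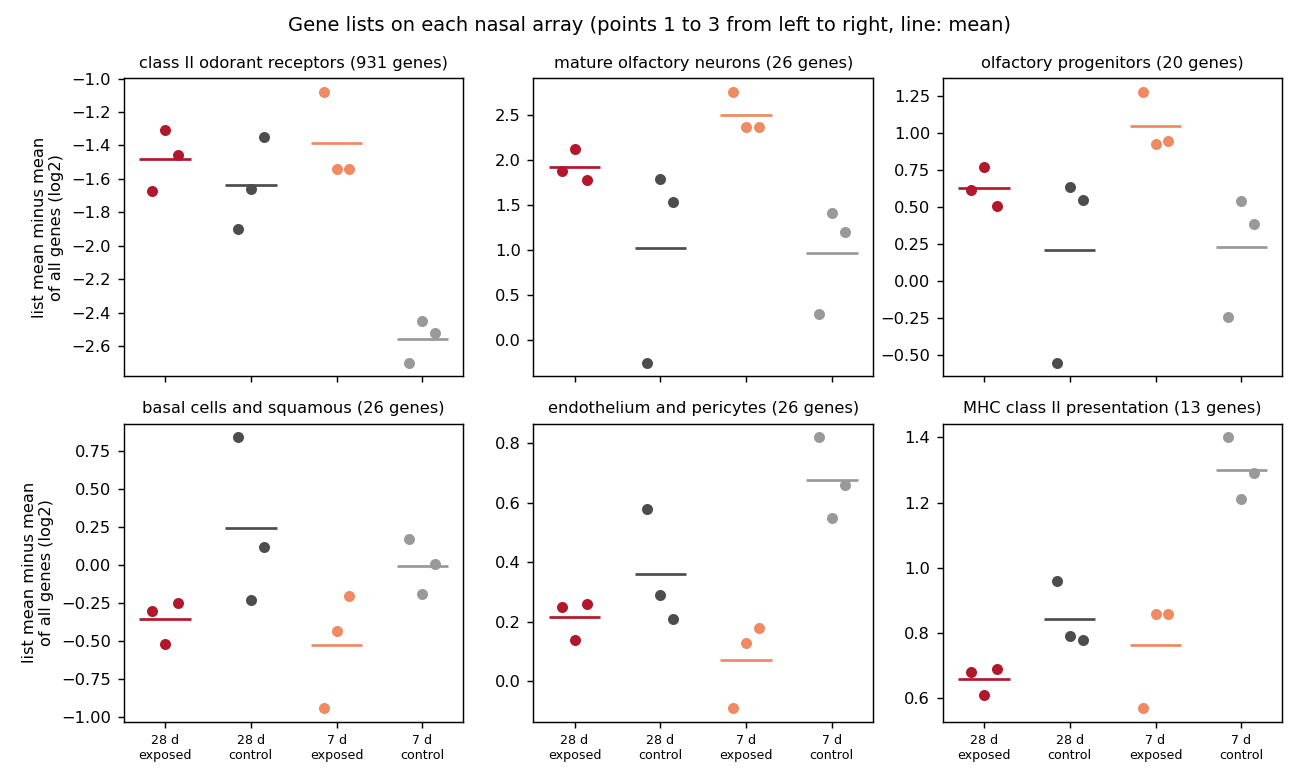
Mean log2 intensity of 6 gene lists minus the mean of all genes on the same array (y axis), for 28-day exposed, 28-day control, 7-day exposed and 7-day control arrays from left to right, with a line at each group mean. Class II receptors averaged -2.56 in the 7-day controls, against -1.64 in the 28-day controls, and the first control array of each day is low in the neuron and progenitor lists.

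Ndc80, the outer kinetochore protein that ties chromosomes to spindle fibres, was the called gene that is no receptor. It had 6.79, 7.03 and 6.81 in exposed and 6.58, 6.88 and 6.76 in control noses at 28 days, and 8.55, 8.46 and 8.42 in exposed and 7.04, 7.16 and 7.05 in control noses at 7 days. The 7-day exposed arrays stood above all others, with a difference between days of -1.25 ± 0.14 (SE, adjusted p = 0.0188). Of 31 proliferation genes tested Ndc80 was the only call, 21 were negative, and the median was -0.17, or 0.06 for the brighter genes above the median level of the arrays. Top2a, the topoisomerase of dividing cells, had -0.55 (adjusted p = 0.254), and Ccna2, cyclin A, had -0.52 (adjusted p = 0.275). At 7 days Ndc80 was also the only member of that list that rose, 1 of 31, where 8.43% of all probe sets did.

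Among the other genes that are no receptors, none passed with the filter. In the negative direction the smallest p-values belonged to 2 RNA-binding proteins, Ralyl at -1.56 ± 0.27 (SE, adjusted p = 0.0536) and Khdrbs2 at -0.80 (adjusted p = 0.0566). Both passed with no filter (adjusted p = 0.0373 and 0.0448). Ralyl had 6.35, 6.49 and 6.48 in exposed and 6.17, 6.36 and 6.76 in control noses at 28 days, and 8.40, 7.78 and 7.97 in exposed and 6.21, 6.71 and 6.54 in control noses at 7 days. Several neuronal genes followed with the same shape and no call: Lrfn5, a synaptic adhesion protein, at -0.93, Camk2a, a calcium-dependent kinase, at -0.97, and Gria2, a glutamate receptor subunit, at -0.76. Tmem25 had -0.94 and RT1-M1-2, a class I histocompatibility gene, had -1.55. Hs3st1, a heparan sulfate sulfotransferase, had another shape, with a 28-day effect of -0.67 and a 7-day effect of -0.01.

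In the positive direction 3 genes passed with no filter only. Engase, a cytosolic enzyme that removes N-glycans, had 8.96, 9.12 and 9.50 in exposed and 8.40, 8.37 and 7.97 in control noses at 28 days, and 9.24, 9.50 and 9.55 in exposed and 9.81, 10.49 and 10.70 in control noses at 7 days. It stood above control at 28 days and below control at 7 days, with no overlap at either, and the difference was 1.85 ± 0.32 (SE, adjusted p = 0.0536 with the filter and 0.0373 without). Scart1, a scavenger receptor, had 0.80 (adjusted p = 0.0536 and 0.0388), and Robo4, a guidance receptor of endothelium, had 0.66 (adjusted p = 0.057 and 0.0448). For both, the 28-day groups overlapped and the 7-day exposed arrays lay below their controls. Traf3ip3 at 0.63, Scube1 at 0.61, Pax1, a developmental transcription factor, at 0.89, Sema6b, a semaphorin, at 0.59, RT1-CE5, a class I histocompatibility gene, at 0.64 and Pln, the inhibitor of the calcium pump of muscle, at 1.06 were next by the rule and not called.

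Endothelial and pericyte genes had the most positive list median, 0.45, with 0 of 26 called and 11 positive at an unadjusted p under 0.05, where 7.51% of all probe sets were. At 7 days 18 of the 26 fell, where 7.84% of all probe sets did, with a median effect of -0.61. At 28 days none of the 26 passed, with a median of -0.12. Erg, an endothelial transcription factor, had 7.26, 7.23 and 7.26 in exposed and 7.47, 7.36 and 7.09 in control noses at 28 days, and 7.91, 7.87 and 8.10 in exposed and 8.81, 8.58 and 8.61 in control noses at 7 days. Its groups overlapped at 28 days only, and the difference was 0.65 ± 0.15 (SE, adjusted p = 0.142). Sox18, another endothelial factor, had 0.75 and Pdgfrb, the growth factor receptor of pericytes, had 0.47, both uncalled. Without 28-day control array 1 the list median was 0.57 and 11 of 26 were called positive, where 6.23% of all probe sets were. Without 28-day control array 3 the list median was 0.35 with 0 called. Matrix genes gave a median of 0.06 over 29, with elastin (Eln) at 0.72 and fibrillin (Fbn1) at 0.51. The bone list also had a median of 0.06, and Mmp13, a collagenase of bone and cartilage, went the other way, at -1.24 (adjusted p = 0.272). It had 7.26, 7.58 and 8.17 in exposed and 8.76, 8.70 and 8.87 in control noses at 28 days, and 9.57, 10.12 and 10.70 in exposed and 9.80, 9.98 and 10.21 in control noses at 7 days.

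Respiratory epithelium gave no call between days. Ciliated, mucous and basal or squamous lists had medians of -0.01, -0.03 and 0.07 over 23, 17 and 22 genes. The squamous median was 0.32 without 28-day control array 1, whose squamous level was 8.64, against 7.59 and 7.90 in the other 28-day controls. Rfx3, a factor for building cilia, had -0.58 and Muc1, a membrane mucin, had 0.94, both uncalled. Clca1, a secreted product of goblet cells, had 5.74, 5.71 and 6.38 in exposed and between 8.39 and 11.10 in control noses at 28 days, and 5.82, 7.79 and 5.98 in exposed and 6.39, 6.43 and 6.08 in control noses at 7 days. The 28-day controls stood high and differed widely among themselves, and the difference of -4.12 ± 0.90 (SE) was not called (adjusted p = 0.112). Without 28-day control array 1 it was -3.48 (adjusted p = 0.0265). The goblet and stomach peptide Tff2 had -0.54, and Sprr3, a protein of the squamous envelope, had -1.37, or -0.64 without 28-day control array 1. Gland secretions had a median of 0.21 over 12 genes, with Odam at 2.30 (adjusted p = 0.181) and Sval2 at 3.35 (adjusted p = 0.191).

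Genes of irritant sensing and neuropeptides gave 0 of 14 called. Uts2r, the urotensin receptor, had 8.25, 8.60 and 8.46 in exposed and 9.07, 8.54 and 8.01 in control noses at 28 days, and 7.47, 8.72 and 8.68 in exposed and 10.48, 10.49 and 10.24 in control noses at 7 days, a difference of 2.01 ± 0.46 (SE, adjusted p = 0.131). Calcb, a sensory neuropeptide of the calcitonin gene family, had 6.84, 6.47 and 6.70 in exposed and 9.08, 8.18 and 7.88 in control noses at 28 days, and 7.42, 7.97 and 8.16 in exposed and 8.11, 8.02 and 8.22 in control noses at 7 days. It was low in the 28-day exposed arrays with no overlap, and the difference was -1.44 ± 0.39 (SE, adjusted p = 0.198).

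No gene of the immune lists was called. Class II antigen presentation had a median of 0.33 with 12 of 13 positive, where 7112 of all 12211 genes with 1 symbol were. At 7 days 9 of the 13 class II presentation genes fell, where 7.84% of all probe sets did. Their median 7-day effect was -0.50, and the 28-day median was -0.13. RT1-Db1 had 7.75, 7.70 and 7.72 in exposed and 8.09, 7.71 and 7.74 in control noses at 28 days, and 8.57, 9.04 and 9.03 in exposed and 9.77, 9.49 and 9.56 in control noses at 7 days. Its difference was 0.60 and that of RT1-Bb 0.75, both rat genes for class II chains. Macrophage, T cell, B cell and interferon lists had medians of 0.18, 0.19, 0.29 and 0.13, and the neutrophil median was -0.22, or -0.04 without 28-day control array 1. The interferon median was 0.25 without 28-day control array 1 and 0.07 without 28-day control array 3, and the macrophage median was 0.10 without the last. Vcam1, a leukocyte adhesion molecule of vessels, had 0.68 (adjusted p = 0.119), Cxcl12, a chemokine of stroma, had 0.54, Tnf had 0.47 and Alox15, a lipoxygenase of eosinophils and macrophages, had 0.48. Jchain, which joins secreted IgA chains, had 1.61 (adjusted p = 0.293). Among interferon genes, Cmpk2 at -0.69 and Mx2 at -0.77 were negative, while the peptide transporter Tap1 was positive at 0.65. Haemoglobin (Hbb) had 1.22 (adjusted p = 0.299), and 13 of 16 genes of its erythroid list were positive with a median of 0.20. That list averaged 7.98 to 8.08 in exposed and 8.01 to 8.12 in control noses at 28 days, and 8.43 to 8.71 in exposed and 8.76 to 8.90 in control noses at 7 days. Its part in the positive immune and vessel lists was not tested.

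Targets of NRF2, the transcription factor released when KEAP1 senses electrophiles, had a median of 0.35 with 28 of 34 positive and none called. At an unadjusted p under 0.05 there were 9 positive, where 7.51% of all probe sets were. At 7 days 14 of the 34 fell and 2 rose, where 7.84% and 8.43% of all probe sets did. Ftl1, ferritin light chain, had 0.70 and Gstp1, a glutathione transferase, had 0.81. Aldehyde and formaldehyde metabolism had a median of 0.14 over 27 genes. Aldh1a1, an aldehyde dehydrogenase, had 11.37, 11.25 and 11.32 in exposed and 11.74, 11.26 and 10.75 in control noses at 28 days, and 10.88, 12.07 and 12.04 in exposed and 12.68, 12.57 and 12.67 in control noses at 7 days, a difference of 1.04 ± 0.43 (SE, adjusted p = 0.343). Aox3, an aldehyde oxidase, had 0.70. The p53 targets had a median of 0.29 (0.17 without 28-day control array 3), with the stress cytokine Gdf15 at 0.81, and DNA repair had 0.01. In heat shock, where the median was -0.03, Hsp90aa1 had -0.44 and its partner Dnaja1 had -0.41, and both had risen at 7 days.

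Clock genes had a median of 0.32 with 0 of 18 called. Dbp, a transcription factor driven by the clock, had 10.58, 10.79 and 10.53 in exposed and 10.28, 10.38 and 10.22 in control noses at 28 days, and 11.05, 11.22 and 11.48 in exposed and 11.60, 11.80 and 11.92 in control noses at 7 days. The groups did not overlap at either day and lay in opposite order, with a difference of 0.87 ± 0.18 (SE, adjusted p = 0.0891). Per3 had 0.92, Nr1d2 0.72 and Tef 0.66, all parts of the clock or its output. The hour of tissue collection was not given, and its part was not tested. Zbtb16, a gene induced by glucocorticoids, had 1.17 (adjusted p = 0.112) in a list with a median of 0.17, which was 0.34 without 28-day control array 1 and 0.07 without 28-day control array 3. No call fell in the remaining lists, whose medians ran from -0.07 in oxidative phosphorylation (64 genes) through 0.11 in cytosolic ribosomal proteins (66 genes) to 0.26 in type 2 inflammation and mast cells (15 genes).

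Without 28-day control array 1 the threshold was passed by 2640 of 21910 probe sets, 12%, of which 1366 (6.23%) were positive and 1274 (5.81%) negative. Those calls joined a negative difference to a positive 7-day effect in 1164 and a positive difference to a negative 7-day effect in 1339. The 7-day effect enters the difference with a minus sign, so opposite signs follow in large part from how it is computed. Their share over all probe sets was not counted. Of the 2640, 1173 had been called at 7 days with all arrays. In class II receptors 199 of 453 were then negative and called, in NRF2 targets 6 of 34, in class II antigen presentation 5 of 13 and in the clock list 6 of 18 were positive and called. Without 28-day control array 3, the other array far from its group, 5 (0.0228%) were called, all negative, and 4 of them were among the 22. None of them was a class II receptor with 1 symbol. Of the genes with 1 symbol 1 was called, from the proliferation list, and the other calls among the 22 carried several receptor symbols each. The number and direction of calls thus depended on which 28-day controls were kept.

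**Figure D5:**
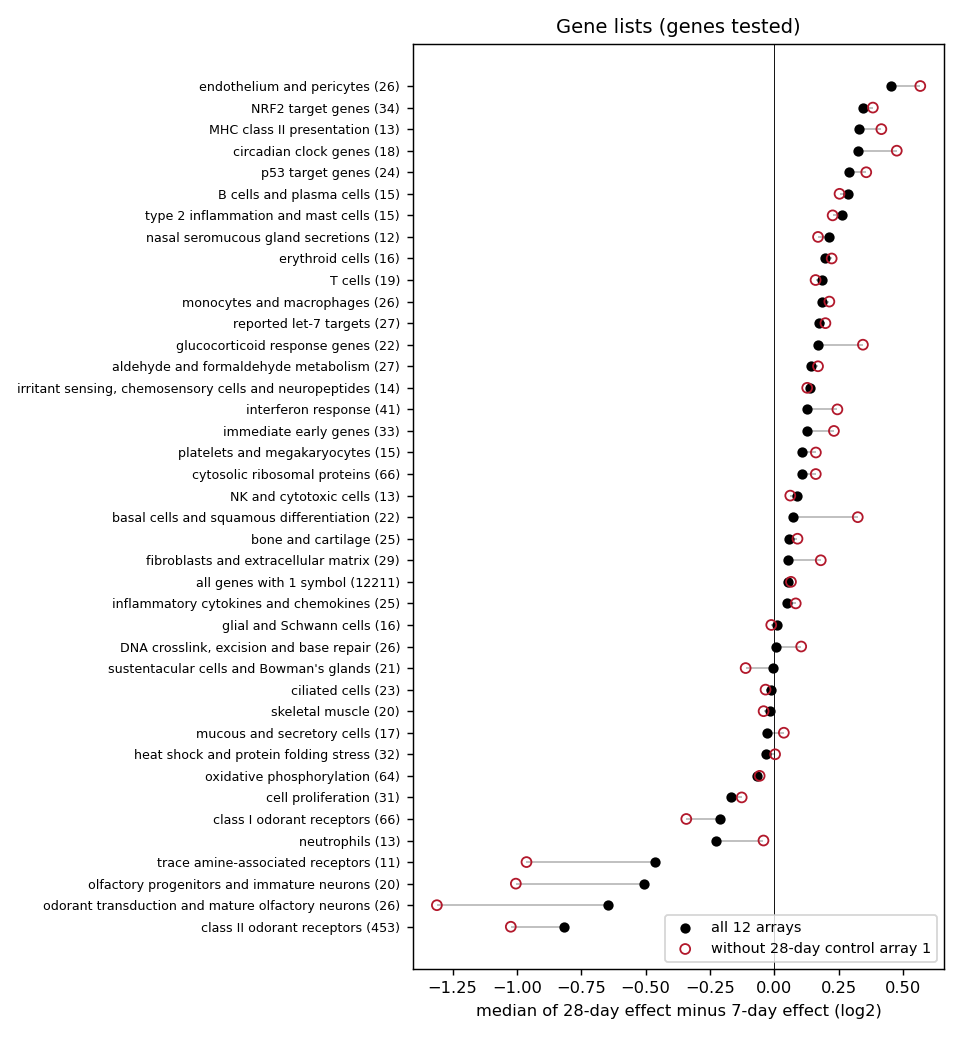
Median difference between days (x axis, log2) for gene lists with 10 or more genes tested (y axis, number of genes in brackets), with all 12 arrays as filled circles and without 28-day control array 1 as open circles. Class II receptors and olfactory neurons lie lowest, at -0.82 and -0.65 with all arrays, and endothelium highest at 0.45.

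White blood cells of the same 4 groups gave 0 of 21910 probe sets called between days by limma, with 2528 (11.5%) at an unadjusted p under 0.05. Leaving out 28-day control array 2 or 28-day exposed array 1 or 2 of blood gave 5, 3 and 1 calls, in that order. The difference between days itself differed between nose and blood for 20 of 20096 probe sets, 0.0995%, with 1 (0.00498%) positive and 19 (0.0945%) negative, and 3070 (15.3%) had an unadjusted p under 0.05. Only 2 of the 22 nasal calls could be tested there, since receptors are dim in blood. Or2t47d passed, at -1.87 ± 0.35 (SE, adjusted p = 0.0356), and Ndc80 had -1.06 (adjusted p = 0.0635). Of the 20, 4 were receptor probe sets and 11 carried no gene name. The 4 receptor probe sets had differences between days of -0.02 to 0.24 in blood. Elsewhere blood made up part of the value, as in Psd3 with -0.50 in nose and 1.58 in blood, and Spetex2g with -2.05 and 1.24. Most of the unnamed probe sets had values close to those of Spetex2g, from -2.25 to -1.70 in nose and 1.17 to 1.30 in blood. They need not be separate genes. The count of 20 became 1641 without nasal 28-day control array 1 and 55 without nasal 7-day exposed array 2. It was 1 to 3 without nasal 28-day exposed array 1 or nasal 7-day control array 2 or 3. Among blood arrays it was 67 and 64 without 28-day exposed arrays 1 and 3, and 1 to 3 without 28-day exposed array 2, 28-day control array 3, 7-day exposed array 2 or 3, or 7-day control array 1 or 2.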

How the data were processed

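Each sample was 1 Affymetrix array of biotin-labelled RNA, 12 from nasal tissue and 12 from white blood cells. The deposited values were linear intensities that the authors had normalized, per the labels. Per the submitters' processing notes Partek was used; for its version, background correction and normalization method, the sources used here give nothing. The deposited intensities were taken to log2 with no further scaling, and arrays have no read depth, so their number limits the precision.

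Of 29214 probe sets, 15310 carried 1 gene symbol, 323 several and 13581 none in the platform annotation; symbols were updated through gene identifiers to RefSeq GRCr8, where 15279 were found. Several symbols were not named. Probe sets with a mean over the 12 nasal arrays at or above percentile 25 (log2 6.61) were kept, and the probe set of highest mean stood for a gene. One fit of 4 group means in limma 3.58.1 (R 4.3.3) gave both exposure comparisons and their difference, two-sided, with Benjamini-Hochberg adjustment over all probe sets kept. Blood was fitted alike, with 21910 probe sets, and the tissues were compared in 1 fit of 24 arrays and 20096 probe sets. Tables and figures used Python 3.11.15, pandas 2.3.3 and matplotlib 3.10.9.

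Named genes were up to 10 in each direction past the threshold, then by smallest p among differences of at least 1.5-fold, the same without chemosensory receptors, up to 4 per list by the size of limma's moderated statistic, and the cell markers. The members, the 40 gene lists and the tests were chosen with earlier results of these data known. The test of the difference between days was also run on simulated nasal data with 21910 probe sets. It recovered 13.4% of probe sets changed 1.5-fold, 64.2% of those changed 2-fold and 90.9% of those changed 4-fold, with 6 false calls. In the measured data, 28-day control arrays 1 and 3 deviated from their group by 0.31 and 0.30 (root mean square). The 7-day nasal arrays deviated by 0.11 to 0.19. The simulated figures need not hold for arrays of such unequal spread. Other filters, scalings, a floor, a pseudocount of 50, another prior, a replicate block, other thresholds and each array left out were tried.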

Additional observations from a re-analysis of the deposited data

Results flagged for a closer look

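The exposure comparison differed between 28 and 7 days by the test of that difference for 22 nasal probe sets. Those with 1 gene symbol were Or4e5 at -5.39, Or4a15 at -4.15, Or4k15c at -3.44, Or4k52 at -3.23, Or4k50 at -3.13, Or4a66 at -3.08, Or4c115 at -2.60, Or4c111 at -2.60, Or13a18b at -2.22, Or2t47d at -1.89, Or8h11 at -1.48 and Ndc80 at -1.25, as log2 differences of the 28-day effect minus the 7-day effect. The difference between days itself differed between nose and blood for 20 probe sets. Of the nasal calls, Or2t47d was among them, at -1.87 for nose minus blood.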

How the results depend on the processing

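The count of 22 nasal calls was 145 with no filter, 1 with the filter at the median, 1 after quantile normalization, 65 with arrays centred, 113 with dim values raised to the filter level, 35 with log2(value + 50), 14 with an intensity trend and robust prior, 471 with all 24 arrays in the fit, 137 at an adjusted p under 0.1 and 377 at an unadjusted p under 0.005 with at least 1.5-fold. It ran from 1 to 2640 with each array left out. Chosen after seeing the data, it was 1076 without 28-day control arrays 1 and 3 together, 2085 with no filter and without control array 1, and 5 with no filter and without control array 3. The single 28-day call became 0 with the filter at the median, 42 after quantile normalization, 2 with arrays centred, 385 with all 24 arrays, 73 and 207 at the other thresholds and 268 without both control arrays, with 0 to 1081 when each array was left out. The 3564 calls at 7 days became 2367 with the filter at the median, 1712 at the unadjusted threshold and 6990 without both 28-day control arrays, with 808 to 5554 when each array was left out. Blood ran from 0 to 5, and nose minus blood gave 2 after quantile normalization and from 1 to 1641 with each array left out. Among named genes 6 values turned sign: Omp ran from -1.61 to 0.044 with each array left out (0.02 without 7-day control array 1), Cyp2g1 from -0.90 to 0.75 (-0.04 without 7-day control array 2) and -0.86 without 28-day control arrays 1 and 3, and Sprr3 was 0.022 without those same 2 arrays. The causes of these moves were not tested. Of the list medians, 745 values moved by less than the spread between replicates and 14 by more.

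Replicate numbers are shared between groups, but same-numbered exposed and control arrays deviated with correlations of 0.19, 0.25 and 0.15 at 28 days and -0.26, -0.08 and -0.14 at 7 days, so the numbers were not taken to pair samples. With the replicate number within day as a block, 82 probe sets were called between days, 21 of them among the 22, with 0 at 28 days and 1795 at 7 days. Signal near background limits the dim receptors, 3 arrays per group limit all values, and day cannot be told apart from array scale.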
